A study of Caenorhabditis elegans with 2 samples.

Results

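Nuclear hormone receptors are transcription factors with a zinc finger DNA-binding domain and, in most members, a ligand-binding domain that takes up small fat-soluble molecules. The genes described here are all those of *C. elegans* named *nhr* with a number, which are 267 of the 20191 genes in the count tables. Each of the 267 is annotated as protein coding. A transcript of 171 of them was found in the cells of early embryos, which is 64% of the family, against 60.7% of all genes. Receptors with names of another form, such as *sex-1* and *daf-12*, are not counted among them and are given at the end.

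The *C. elegans* family is far larger than that of insects or mammals, and most of its members descend from an ancestor related to the HNF4 receptors. A small set has direct counterparts in flies and mammals, and several of these act in the epidermis, in molting and in neurons. Other members control fat metabolism, the breakdown of propionate, detoxification and the response to low oxygen, mostly in the intestine and the epidermis, and for many no function is known.

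The cells came from embryos around the 100-200 cell stage. The *spr-5; met-2* mutants carry the alleles b101 of *spr-5*, a histone demethylase gene on chromosome I, and n4256 of *met-2*, a histone methyltransferase gene on chromosome III, and the embryos were the F1 progeny of homozygous double mutants. The Wild Type was N2. Mothers were synchronized by starvation as first-stage larvae, and embryos of many mothers were pooled, dissociated with chitinase and captured in droplets for sequencing of transcript 3' ends, in 1 library per genotype. With 1 library each there is no replicate, so no difference between the genotypes was tested, and the 95% intervals below cover counting error only. A unique molecular identifier (UMI) counts 1 captured transcript, and levels are given as UMIs per 1000000 UMIs of the same cells (CPM), not divided by gene length because only transcript ends are counted.

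The deepest 686 barcodes of *spr-5; met-2* and the deepest 219 of Wild Type were kept as cells. The median cell had 726.5 UMIs in the mutants and 2086 in Wild Type, and the libraries stood apart in their largest barcodes. None of the mutant barcodes was above 10000 UMIs, whereas 18 in Wild Type were, and these held 48.6% of its UMIs. The deleted or altered genes were still counted in the mutants, *spr-5* with 40 UMIs (54.6 CPM) against 83 in Wild Type (81.9 CPM), and *met-2* with 20 UMIs (27.3 CPM) against 64 (63.2 CPM). Whether the counted 3' ends lie outside the altered parts was not analysed here. The libraries shared 11 cell barcodes.

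Receptor transcripts were sparse but present in most cells. The family had 1443 UMIs in *spr-5; met-2*, or 1971 CPM (1871 to 2076), and 1397 UMIs in Wild Type, or 1379 CPM (1307 to 1453). At least 1 receptor UMI was found in 71.4% of mutant cells and 74.4% of Wild Type cells. When 500 UMIs were drawn from each cell, which left out 162 mutant cells with fewer, the shares were 55% (50.6 to 59.3) in the mutants and 39.3% (32.8 to 46.1) in Wild Type. Barcodes with at most 200 UMIs, which hold mostly RNA that is free in the suspension, had 2243 CPM of the family in the mutants and 1463 CPM in Wild Type, so this level was no lower in free RNA than in the cells.

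The range among members was wide. Of the 171 detected, 163 were found in the mutants and 123 in Wild Type, with 48 seen in the mutants alone and 8 in Wild Type alone. Of all 12256 genes detected, 2265 were seen in the mutants alone and 561 in Wild Type alone. Only 45 members reached 20 UMIs over both libraries, or 16.9% of the family, against 33.9% of all genes. A further 29 had 1 UMI in all. The 6 leading members together held 27% of the receptor UMIs in the mutants and 29.5% in Wild Type, and the 45 members with at least 20 UMIs held 75.3% and 78.7% of them.

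**Figure D1:**
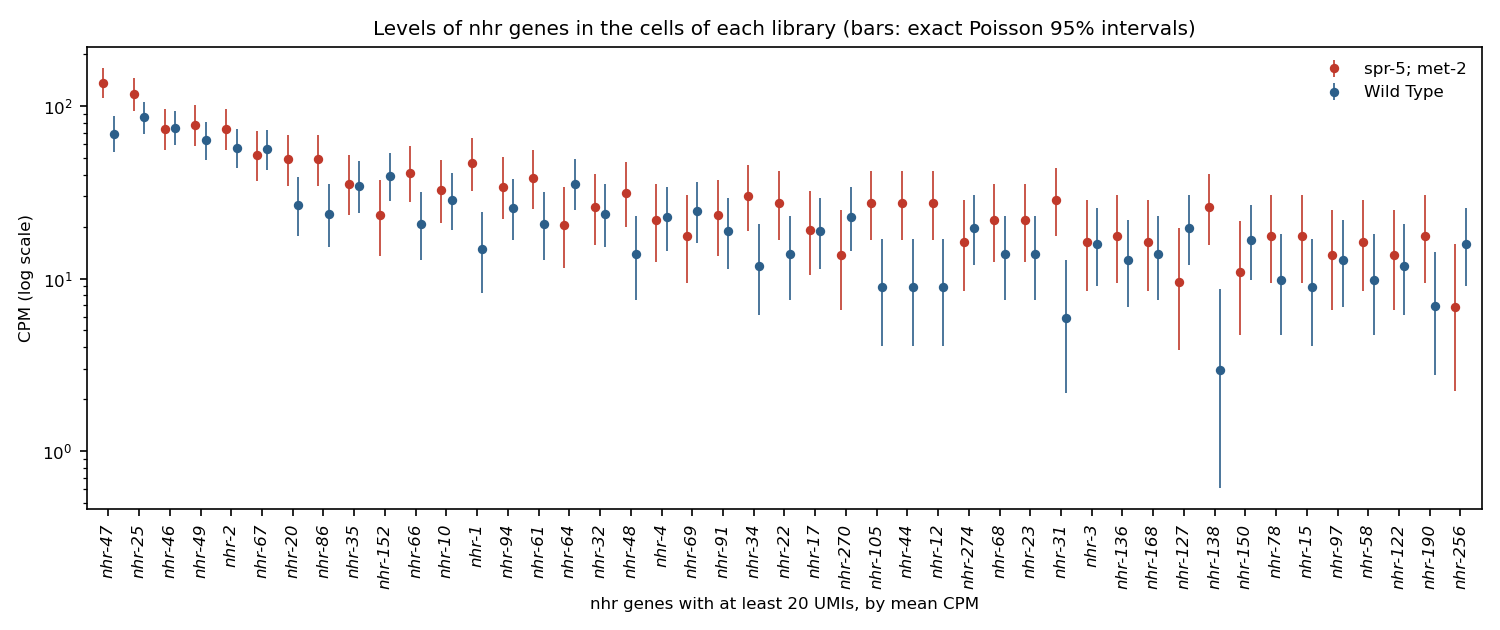
CPM (log scale) of the 45 *nhr* genes with at least 20 UMIs in the cells of *spr-5; met-2* (red, left of each pair) and Wild Type (blue), ordered by mean CPM, with exact Poisson 95% intervals. *nhr-47* and *nhr-25* lead, at 137 and 117 CPM in the mutants, and *nhr-138* has the widest gap between the genotypes.

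*nhr-25* and *nhr-47* had the highest mean level over both libraries. *nhr-25* lies at X:13008493-13013964 and encodes the FTZ-F1 and SF-1 ortholog, which acts in the epidermis and in molting. It had 86 UMIs in 58 mutant cells, or 117 CPM, and 87 UMIs in 31 Wild Type cells, or 85.9 CPM, with a ratio of 1.37 (1.004 to 1.86) that was 2.19 without the barcodes above 10000 UMIs. *nhr-47* (V:5505253-5509956) had 100 UMIs in 89 mutant cells, or 137 CPM, and 70 UMIs in 48 Wild Type cells, or 69.1 CPM. Its ratio was 1.98 (1.44 to 2.72), and its transcripts were spread over many cells with at most 4 in a mutant cell and 6 in a Wild Type cell. With 500 UMIs drawn per cell it was 1.21. The 3' ends of *nhr-47* and the neighbouring *hpo-15*, on the other strand, overlap by 27 bases in the annotation.

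*nhr-46*, *nhr-49*, *nhr-2* and *nhr-67* followed, with ratios of the mutants to Wild Type from 0.92 to 1.29. *nhr-46* (IV:5747363-5757862) had 54 UMIs in the mutants (73.8 CPM) and 76 in Wild Type (75.0 CPM), with a ratio of 0.98 (0.68 to 1.41). *nhr-2* (I:5818474-5821134), a receptor made early from the embryo's own genome, had 54 UMIs (73.8 CPM) in the mutants and 58 (57.2 CPM) in Wild Type, a ratio of 1.29 (0.87 to 1.90). *nhr-67* (IV:11169748-11174791), the tailless ortholog that acts in neurons and in the gonadal anchor cell, had 38 UMIs (51.9 CPM) in only 19 mutant cells and 57 UMIs (56.3 CPM) in only 18 Wild Type cells, with a ratio of 0.92 (0.60 to 1.42). It was the most concentrated of the 4, with up to 6 UMIs in a mutant cell and 11 in a Wild Type cell. With each cell at equal weight the ratio was 2.66 for *nhr-67* and 2.14 for *nhr-49*, and with 500 UMIs drawn per cell it was 3.06 for *nhr-46*, 4.39 for *nhr-49* and 3.34 for *nhr-67*, so the side of 1 on which *nhr-46* and *nhr-67* lie changed with the setting.

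Next in order of mean level were *nhr-20*, *nhr-86*, *nhr-35*, *nhr-152*, *nhr-66* and *nhr-10*. *nhr-20* had 36 UMIs in the mutants and 27 in Wild Type (ratio 1.85, 1.09 to 3.16), and *nhr-35* had 26 and 35 (1.03, 0.59 to 1.76). The counting intervals of neighbours in this order overlap in each library from *nhr-46* down to *nhr-67*, so the order among those 4 is not fixed by these counts.

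Of 12 members chosen as having counterparts in other animals, 11 had a UMI, but 5 reached 20 UMIs. These were *nhr-25*, *nhr-67*, *nhr-48*, *nhr-91* and *nhr-23*. *nhr-23*, the ROR and DHR3 ortholog that drives molting, had 16 UMIs in the mutants (21.9 CPM) and 14 in Wild Type (13.8 CPM), a ratio of 1.58 (0.72 to 3.499). *nhr-91*, the GCNF ortholog, had 17 and 19 UMIs (1.24, 0.61 to 2.52). *nhr-48*, which belongs to the group of *nhr-8* and *daf-12*, had 23 UMIs in the mutants (31.4 CPM) and 14 in Wild Type (13.8 CPM). At 2.27 (1.12 to 4.78) it was the only one of the 5 beyond 2-fold. Of all genes with at least 20 UMIs, 20.9% were more than 2-fold higher and 5.35% lower.

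The other conserved members were at the edge of detection. *nhr-41*, the ortholog of TR2 and TR4, had 7 UMIs in 5 mutant cells and 0 in Wild Type. That is 3.23-fold higher if Wild Type is set to a floor of 3 counts. *nhr-8*, a receptor of xenobiotic and cholesterol responses, had 5 UMIs in the mutants and 4 in Wild Type. *nhr-6* (the NR4A ortholog), *nhr-85* (the E75 and REV-ERB ortholog) and *nhr-111* had 1 UMI each in the mutants and 0 in Wild Type, *nhr-239* had 0 in the mutants and 2 in Wild Type, and *nhr-236* had 0 in both. Summed over the 12, the level was 266 CPM (230 to 306) in the mutants and 194 CPM (168 to 224) in Wild Type, a ratio of 1.37 (1.12 to 1.68), beside 1.44 (1.33 to 1.56) for the other 255 members. These intervals overlap.

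All 12 members of the metabolic list were detected in both libraries, and 7 of them reached 20 UMIs. *nhr-49*, the HNF4-like regulator of fat oxidation and desaturation, led with 57 UMIs (77.9 CPM) in the mutants and 64 (63.2 CPM) in Wild Type, a ratio of 1.23 (0.85 to 1.79). Its partner *nhr-66* had 30 UMIs (41 CPM) in the mutants and 21 (20.7 CPM) in Wild Type (1.98, 1.09 to 3.63), while its partners *nhr-80* and *nhr-13* had 4 UMIs each in the mutants and 1 and 8 in Wild Type. The propionate regulators *nhr-10* and *nhr-68* had 24 and 16 UMIs in the mutants, against 29 and 14 in Wild Type, with ratios of 1.14 (0.64 to 2.04) and 1.58 (0.72 to 3.499).

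*nhr-64* and *nhr-69*, both HNF4-like, lay on the other side of 1. *nhr-64* had 15 UMIs (20.5 CPM) in the mutants and 36 (35.5 CPM) in Wild Type, with a ratio of 0.58 (0.29 to 1.08), and *nhr-69* had 13 and 25 UMIs, with a ratio of 0.72 (0.34 to 1.46). Neither interval excludes 1. The remaining metabolic members were sparse. *nhr-114*, which acts in the diet-dependent health of the germline, had 5 UMIs in the mutants and 10 in Wild Type, *nhr-76* had 2 and 4, and *nhr-62*, needed for longevity under dietary restriction, had 2 and 1. Over the list the level was 284 CPM in the mutants and 234 CPM in Wild Type, a ratio of 1.21 (1.003 to 1.47).

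Of 6 members linked to stress and ion balance, 2 reached 20 UMIs and both were more than 2-fold higher in the mutants. Of all genes with at least 20 UMIs, 20.9% were. *nhr-31*, which controls proton pump genes of the excretory canal, had 21 UMIs in 17 mutant cells (28.7 CPM) and 6 in 4 Wild Type cells (5.92 CPM), a ratio of 4.84 (1.89 to 14.7). The Wild Type UMIs are few, and the ratio was 12.5 without called doublets, 14.9 without barcodes above 10000 UMIs and 24.5 with each cell at equal weight. *nhr-86*, a receptor of bacterial metabolites in the intestine that also regulates metabolic genes, had 36 UMIs (49.2 CPM) in the mutants and 24 (23.7 CPM) in Wild Type, a ratio of 2.08 (1.20 to 3.64). The others had few UMIs, *nhr-57*, a gene induced by low oxygen, with 5 in the mutants and 3 in Wild Type, *nhr-14* with 1 and 2, and *nhr-176*, which acts in the detoxification of thiabendazole, with 1 and 0. The sum was 94.3 CPM in the mutants and 38.5 CPM in Wild Type (2.45, 1.63 to 3.73), and *nhr-31* and *nhr-86* held most of it. When 500 UMIs were drawn per cell, the *nhr-57* ratio was 0.84 in place of 2.31.

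Of the 6 members with known embryonic roles, *nhr-25*, *nhr-2* and *nhr-67* were among the leading 6 of the family and *nhr-23* also passed 20 UMIs. The 6 had a sum of 277 CPM in the mutants and 227 CPM in Wild Type (1.22, 1.01 to 1.48). None of the 4 was beyond 2-fold, where 20.9% of all genes were higher and 5.35% lower. *nhr-40*, needed for muscle and embryonic development, had 8 UMIs in the mutants and 7 in Wild Type, and *nhr-60* had 1 and 7.

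To see where the receptors were expressed, cells of both libraries were clustered without any *nhr* gene or other receptor, so that the members' own levels did not set the clusters. A cluster is called by a tissue, as "-like", only from marker genes. Among clusters with at least 10 cells of a genotype, receptor transcripts were most abundant in hypodermis-like cells (embryonic epidermis, cluster 4), in each genotype. In these the family reached 3512 CPM (3157 to 3895) in the 82 cells of *spr-5; met-2* and 2184 CPM (2031 to 2345) in the 28 cells of Wild Type. The 15 hypodermis markers summed to 27476 CPM in the mutants and 18405 CPM in Wild Type in these cells, against 1979 and 1017 CPM in all other cells. The leading genes of the cluster included *sqt-3*, *dpy-14* and *dpy-17*, collagen genes of the cuticle. Of 15 body wall muscle markers 14 were also counted in these cells in each library, at 3688 CPM in the mutants and 2431 CPM in Wild Type, against 11054 and 7788 CPM in the other cells, and their part in the receptor levels was not tested.

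Body wall muscle-like cells (clusters 9, 13 and 14) had 1489 CPM (1282 to 1720) in the mutants and 786 CPM (635 to 962) in Wild Type, but differed among themselves, with 1804, 955 and 1815 CPM in the mutant cells of the 3 clusters. Low levels were also found in the unnamed clusters 0, with 1282 CPM in the mutants and 816 CPM in Wild Type, and 3, with 1134 CPM in the mutants and 1041 CPM in Wild Type. Intestine-like, ciliated neuron-like and neuron-like cells had 2969 (2399 to 3633), 2772 (2248 to 3381) and 2254 CPM (1793 to 2798) in the mutants. These 3 groups came almost only from the mutants, with 23, 31 and 57 cells against 1, 1 and 2 cells of Wild Type, so a genotype ratio was not computed in them. In the mutants the intestine-like and ciliated neuron-like intervals overlap that of the hypodermis-like cells. So does that of the 12 other mesoderm-like cells, at 2535 CPM (1607 to 3804). In every cluster with at least 10 cells of each genotype the mutant level was the higher, from a ratio of 1.09 (0.78 to 1.49) in unnamed cluster 3 to 1.96 (1.41 to 2.76) in muscle-like cluster 9.

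**Figure D2:**
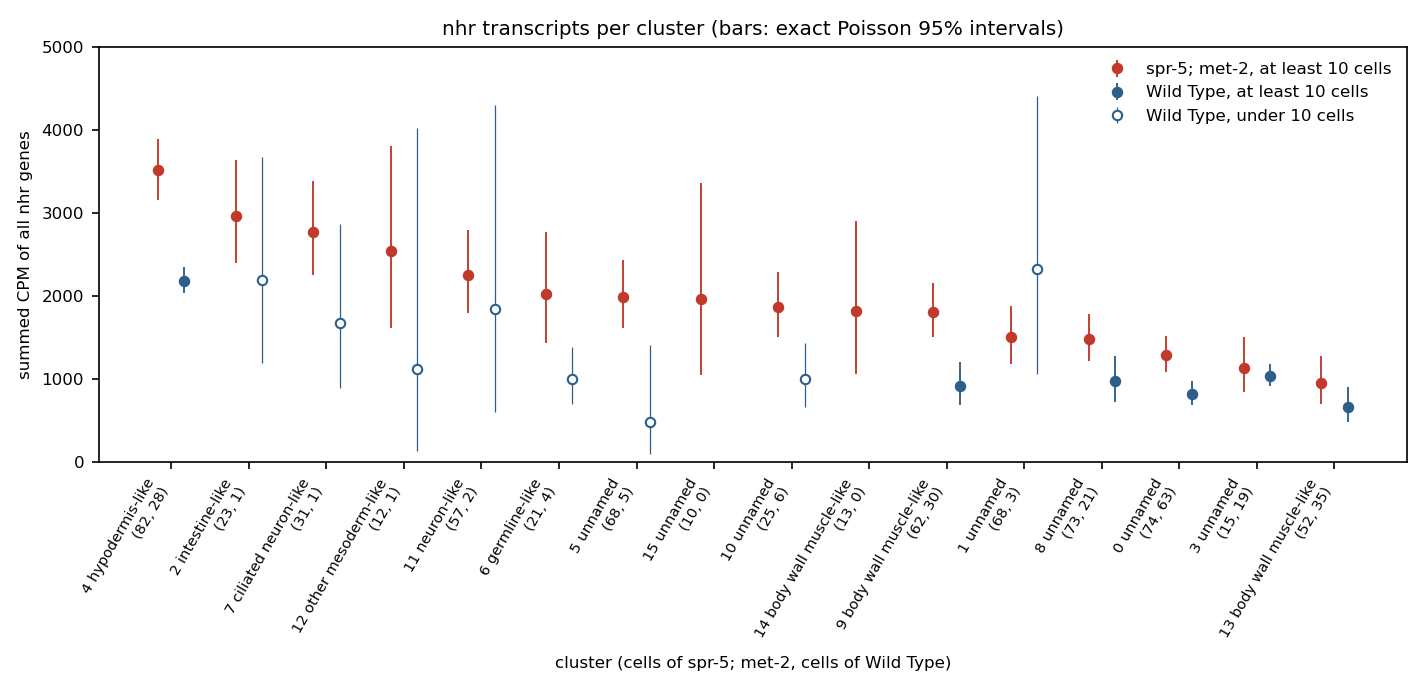
Summed CPM of all 267 *nhr* genes in each cluster, in *spr-5; met-2* (red, left of each pair) and Wild Type (blue), with exact Poisson 95% intervals. Open points rest on under 10 cells, and below each name stand the cells of *spr-5; met-2* and of Wild Type. The hypodermis-like cluster has the highest level in the mutants, at 3512 CPM, and 2184 CPM in Wild Type.

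The hypodermis-like cells were 12% of the mutant cells and 12.8% of the Wild Type cells. They held 24.8% of the receptor UMIs in the mutants, with 13.9% of all UMIs, and 54.5% in Wild Type, with 34.4% of all UMIs. Against the other cells of their own library, the family was 2.04-fold higher (1.80 to 2.30) in *spr-5; met-2*, at 3512 and 1722 CPM, and 2.28-fold higher (2.05 to 2.54) in Wild Type, at 2184 and 957 CPM. The 2 intervals overlap. Of the 28 Wild Type cells 9 had more than 10000 UMIs, and the median depth of these cells was 670.5 UMIs in the mutants and 6447.5 in Wild Type. Without the barcodes above 10000 UMIs the Wild Type fold was 2.90 (2.45 to 3.43), at 2591 and 892 CPM, a setting added after the data had been seen.

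This was shared by many members. Of the 45 with at least 20 UMIs, 24 (53.3%) were more than 2-fold higher in hypodermis-like than in other cells of the mutants, where 9.36% of all 6839 genes with at least 20 UMIs were. In Wild Type 23 (51.1%) were, against 8.79% of all genes. In both genotypes at once it was 16 of 45 (35.6%), against 4.81% of all genes. In the other direction, 7 of 45 (15.6%) were more than 2-fold lower in the mutants, against 23.1% of all genes, 3 (6.67%) in Wild Type, against 13.4%, and 2 (4.44%) in both, against 6.08%. The median fold of the 45 was 2.12 in the mutants and 2.10 in Wild Type, beside 0.83 and 0.91 for all genes. The clusters were built on the other genes, so their share is not one of genes left out of the clustering, and no test was made. The filter of 20 UMIs also counted the hypodermis-like cells, so a member could pass it through the cells where it is high. Of the 16, all but *nhr-32* and *nhr-46* had fewer than 20 UMIs in the other cells of both libraries together. Those members passed only through their UMIs in hypodermis-like cells, so their count is a description only. All genes went through the same filter. In the other cells *nhr-270* and *nhr-150* each had 3 UMIs in the mutants and 0 in Wild Type, whereas *nhr-46* had 37 and 35.

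**Figure D3:**
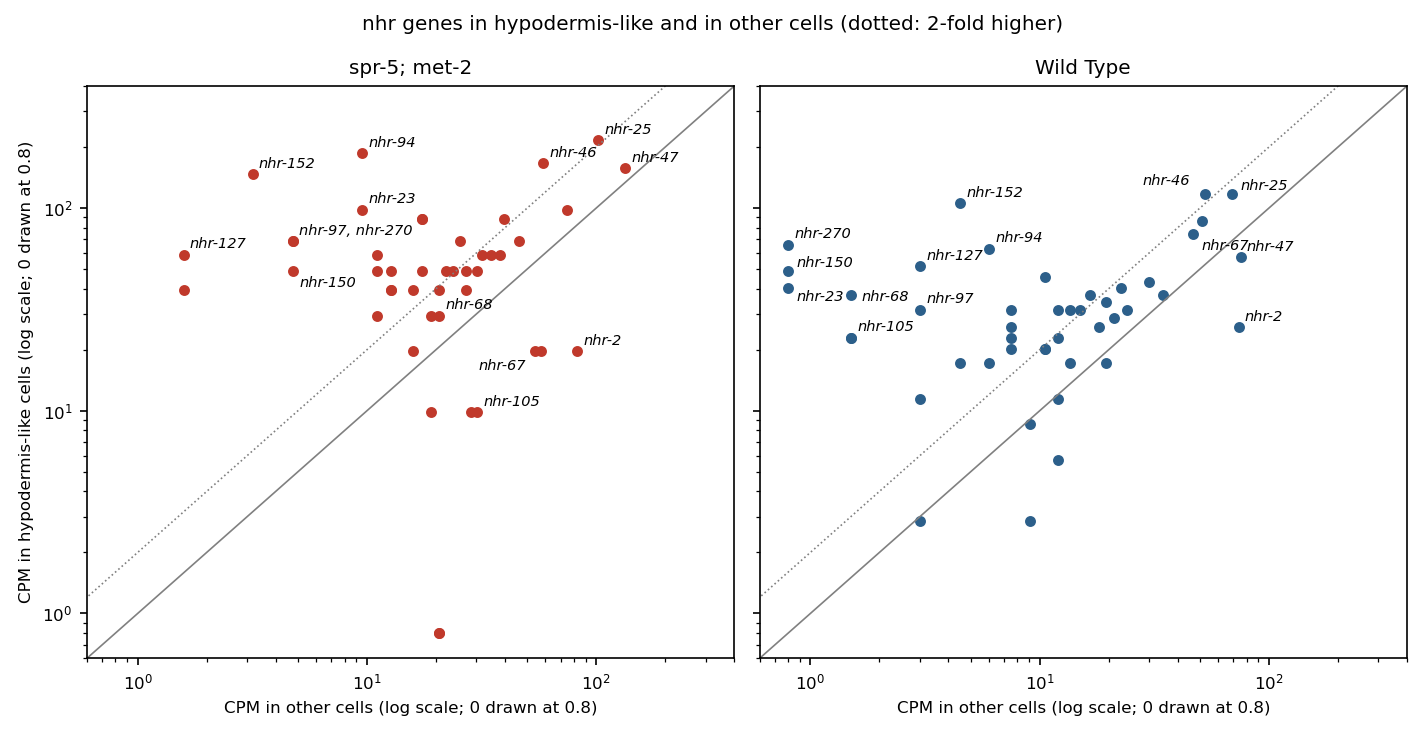
CPM of the 45 *nhr* genes with at least 20 UMIs in hypodermis-like cells (vertical, log scale) against CPM in all other cells (horizontal, log scale), in *spr-5; met-2* on the left and Wild Type on the right. Points above the dotted line are more than 2-fold higher in hypodermis-like cells, 24 of 45 in the mutants and 23 of 45 in Wild Type, and values of 0 are drawn at 0.8.

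*nhr-152* and *nhr-94* had the highest folds in both genotypes among members with more than 50 UMIs. *nhr-152* (V:7686350-7688228) had 15 of its 17 mutant UMIs and 37 of its 40 Wild Type UMIs in hypodermis-like cells. Its level there was 147 CPM in the mutants, against 3.17 CPM in other cells, and 106 CPM in Wild Type, against 4.51 CPM, which are folds of 46.4 (10.8 to 418) and 23.5 (7.45 to 119.3). *nhr-94* (V:7684052-7686335) had 19 of 25 UMIs there in the mutants and 22 of 26 in Wild Type, with folds of 19.6 (7.52 to 59.9) and 10.5 (3.56 to 41.9).

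The pair lies head to head on chromosome V, *nhr-94* on the minus and *nhr-152* on the plus strand, with 14 bases between their annotated starts. Both were detected in 4 mutant cells and 8 Wild Type cells, of which 4 and 7 were hypodermis-like. Free RNA held *nhr-152* at 29.9 CPM in the mutants and 24.7 CPM in Wild Type, which is above its level in the other cells. The last 36 bases of *nhr-152* overlap a gene of the other strand, C12D5.9. This pair was picked out after its values had been seen.

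Several others with this pattern in both genotypes had fewer transcripts. *nhr-270* had 7 of 10 UMIs in hypodermis-like cells of the mutants, a 14.4-fold (3.29 to 86.4) higher level, and 23 of 23 in those of Wild Type. The Wild Type fold was 14.6 if the other cells are set to 3 counts, with an exact lower limit of 10.96. *nhr-150* had 5 of 8 and 17 of 17, *nhr-97* had 7 of 10 and 11 of 13, and *nhr-127* had 6 of 7 and 18 of 20. The annotated *nhr-127* overlaps *nhr-218* by 704 bases on the same strand, so reads of these neighbours could have been split. *nhr-44* had 9 of 20 UMIs there in the mutants and 8 of 9 in Wild Type, with folds of 5.06 (1.85 to 13.4) and 15.3 (2.05 to 677).

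Among the receptors with known roles in the epidermis, *nhr-23* fitted the same description. It had 10 of 16 UMIs in hypodermis-like cells of the mutants, at 98.1 CPM against 9.52 CPM elsewhere, a fold of 10.3 (3.39 to 34.5). In Wild Type it had 14 of 14, at 40.2 CPM. That is 8.90-fold higher if the other cells are set to 3 counts, with an exact lower limit of 6.33. *nhr-25* was broader. It was the most abundant receptor of the hypodermis-like cells of the mutants, at 216 CPM, and level with *nhr-46* in those of Wild Type, at 118 CPM each, but its folds over other cells were 2.12 (1.25 to 3.497) and 1.70 (1.09 to 2.65). *nhr-46* had folds of 2.84 (1.4995 to 5.17) in the mutants and 2.23 (1.39 to 3.61) in Wild Type.

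A few members had unlike folds in the 2 libraries, and for these the difference was not tested. For *nhr-105*, *nhr-68* and *nhr-67* the intervals of the 2 libraries overlap, for *nhr-105* only at their ends. *nhr-105* had 1 of 20 UMIs in hypodermis-like cells of the mutants and 8 of 9 in Wild Type, with folds of 0.33 (0.01 to 2.05) and 15.3 (2.05 to 677). *nhr-68* had 3 of 16 and 13 of 14, with folds of 1.43 (0.26 to 5.19) and 24.8 (3.72 to 1054). *nhr-67* had 2 of 38 UMIs there in the mutants and 26 of 57 in Wild Type, with folds of 0.34 (0.04 to 1.33) and 1.60 (0.91 to 2.78). Of the 26 Wild Type UMIs all but 2 lay in barcodes above 10000 UMIs, and without those barcodes the *nhr-67* fold in Wild Type was 0.38. *nhr-2* was low in hypodermis-like cells of both, with folds of 0.24 (0.03 to 0.90) and 0.35 (0.15 to 0.72).

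*nhr-2* was instead concentrated in the unnamed cluster 10, whose leading genes include *dsl-2*, *lsy-27*, *sdz-9* and *skr-9*. The 25 mutant cells of this cluster held 24 of 54 *nhr-2* UMIs, at 497 CPM against 43.9 CPM in the other mutant cells, a fold of 11.3 (6.34 to 20.05). Its 6 Wild Type cells held 13 of 58 UMIs, at 446 CPM against 45.7 CPM, a fold of 9.75 (4.83 to 18.4). The cells of this cluster were deep for their libraries, with a median of 2216 UMIs in the mutants and 4772.5 in Wild Type.

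*nhr-67* was concentrated in neuron-like cells (cluster 11) of the mutants. Of its 38 mutant UMIs 15 lay in 5 of the 57 neuron-like cells, at 412 CPM against 33.1 CPM elsewhere, a fold of 12.5 (6.05 to 24.95). In Wild Type the cluster had 2 cells and none had the transcript. The cluster was led by genes of neuropeptides such as *flp-11* and *flp-1*. The other-named receptor *fax-1*, which acts in neuron identity, had 11 UMIs in 5 neuron-like cells of the mutants, and no cell held both *fax-1* and *nhr-67*. A further 13 mutant UMIs of *nhr-67* lay in 4 cells of unnamed cluster 0, a fold of 3.02 (1.42 to 6.13), against 1.04 (0.45 to 2.15) in Wild Type. In unnamed cluster 8 its fold was 3.36 (1.45 to 6.92) in Wild Type, with 9 UMIs in 2 cells, and 0.25 (0.01 to 1.47) in the mutants.

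The intestine-like cluster held 23 mutant cells and 1 Wild Type cell. *nhr-8* had 3 of its 5 mutant UMIs and 2 of its 4 Wild Type UMIs there, and *nhr-46* had 7 of 54 and 3 of 76, with folds of 3.29 (1.26 to 7.33) and 6.47 (1.30 to 19.7). In body wall muscle-like cells 4 members had at least 10 UMIs. Among these 4, *nhr-47* and *nhr-49* had the highest levels, and *nhr-69* had the highest fold, with 5 of 13 UMIs in the mutants and 8 of 25 in Wild Type. Members with fewer UMIs there were not ranked. In ciliated neuron-like and germline-like cells no member reached 10 UMIs, so none is described there.

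Over all cells the family was higher in *spr-5; met-2* than in Wild Type by 1.43 (1.33 to 1.54). Homeobox genes of the *ceh* series, measured in the same way, had a ratio of 1.06 (0.9996 to 1.12), and T-box genes of the *tbx* series 1.497 (1.26 to 1.78). Among the 45 receptors with at least 20 UMIs, 34 (75.6%) had a higher level in the mutants and 11 a lower one, where 63.4% of all genes were higher, and the median log2 ratio was 0.41, beside 0.27 over all 6839 genes. More than 2-fold higher in the mutants were 10 of 45 (22.2%), against 20.9% of all genes, and more than 2-fold lower were 2 of 45 (4.44%), against 5.35%. The share of members past 2-fold was thus close to that of all genes in both directions.

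**Figure D4:**
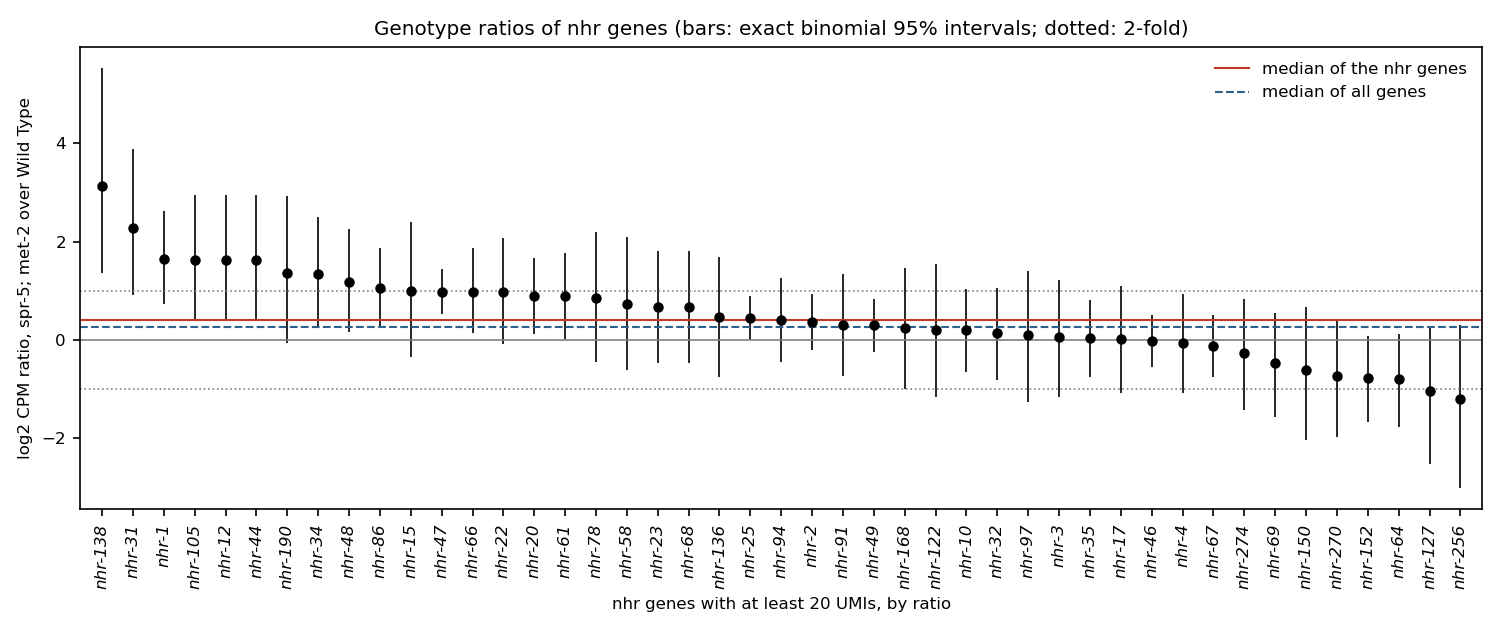
The log2 CPM ratio, *spr-5; met-2* over Wild Type, of the 45 *nhr* genes with at least 20 UMIs, ordered by ratio, with exact binomial 95% intervals. The median of the 45 is 0.41 and that of all genes 0.27, and 10 genes lie above and 2 below the dotted lines at 2-fold.

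These values moved with the weight of large cells. Without the 18 Wild Type barcodes above 10000 UMIs, which held 56.1% of its receptor UMIs, the family ratio was 1.67, and 14 of 34 members (41.2%) were more than 2-fold higher, against 22.2% of all genes. With each cell at equal weight the ratio was 1.97, with 22 of 45 members (48.9%) higher, against 26.7% of all genes. Scaling by the median of ratios lowered every log2 ratio by 0.27 and gave a family ratio of 1.19.

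*nhr-138* was the member with the highest ratio. It had 19 UMIs in 15 mutant cells (25.95 CPM) and 3 UMIs in 3 Wild Type cells (2.96 CPM), a ratio of 8.77 (2.58 to 46.2), and 8 of the 19 lay in muscle-like cells. It overlaps the coding gene C28D4.18 by 39 bases on the same strand. After it came *nhr-31*, *nhr-1*, *nhr-12*, *nhr-44* and *nhr-105*. *nhr-1* (X:17514063-17528197) had 34 UMIs in 34 mutant cells (46.4 CPM) and 15 UMIs in 12 Wild Type cells (14.8 CPM), a ratio of 3.14 (1.66 to 6.20). *nhr-12*, *nhr-44* and *nhr-105* each had 20 UMIs in the mutants and 9 in Wild Type, a ratio of 3.08 (1.34 to 7.67). The others past 2-fold were *nhr-190* (2.57, 0.95 to 7.61), *nhr-34* (2.54, 1.20 to 5.63), *nhr-48* and *nhr-86*.

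The 6 lowest ratios had intervals that all include 1. *nhr-256* had 5 UMIs in the mutants (6.83 CPM) and 16 in Wild Type (15.8 CPM), a ratio of 0.43 (0.12 to 1.24), and 1.25 when 500 UMIs were drawn per cell. *nhr-127* had 7 and 20 UMIs (0.48, 0.17 to 1.19), and *nhr-152* had 17 and 40 (0.59, 0.31 to 1.06). *nhr-270* had 10 and 23 UMIs (0.60, 0.26 to 1.31) and *nhr-150* had 8 and 17 (0.65, 0.24 to 1.59). With *nhr-64* these are the 6 lowest. With each cell at equal weight the ratio was 1.57 for *nhr-270* and 2.23 for *nhr-150*, and without barcodes above 10000 UMIs that of *nhr-152* was 1.01. Of these, *nhr-127*, *nhr-152*, *nhr-270* and *nhr-150* had most of their transcripts in hypodermis-like cells, which gave 13.9% of all UMIs in the mutants and 34.4% in Wild Type. By number of cells the shares were close, 12% and 12.8%, whereas the median depth of these cells was 670.5 and 6447.5 UMIs. Within hypodermis-like cells the ratio was 1.39 (0.71 to 2.59) for *nhr-152* and 1.14 (0.37 to 2.996) for *nhr-127*. It was 1.04 (0.38 to 2.50) for *nhr-270* and 1.01 (0.29 to 2.84) for *nhr-150*, and a part of cell composition or depth was not tested.

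Some receptors were seen in 1 library only, 48 in the mutants and 8 in Wild Type, beside 2265 and 561 of all 12256 detected genes. Most of these 48 and 8 members had 1 to 3 UMIs. Above 3, *nhr-142* had 11 UMIs in the mutants, which is 5.07-fold higher against the floor. In the mutants *nhr-41* had 7, *nhr-133* had 6, *nhr-139* had 5 and *nhr-135* had 4. In the other direction *nhr-163* had 0 UMIs in mutant cells and 5 in Wild Type cells. The floor of 3 counts is 4.10 CPM in the mutants and 2.96 CPM in Wild Type, and the exact upper limits of a count of 0 are 5.04 and 3.64 CPM, so these members are not shown to be absent.

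The family is uneven along the genome. Chromosome V carries 165 of the 267 members, and 102 of these were detected. They gave 38.9% of the receptor UMIs in the mutants and 34.1% in Wild Type. Chromosome IV has 33 members, of which 27 were detected, with 21.8% and 22.5% of the UMIs. Members that lie next to another member on the chromosome were detected about as often as the rest, 84 of 134 against 87 of 133, but 10 of the 134 reached 20 UMIs, against 35 of the 133. Close copies in such clusters can share reads, and how the counting treated these was not analysed here. Of the 45 members, 12 overlap a coding gene on the other strand and 3 overlap one on their own strand.

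The receptors with other names differed among themselves. *sex-1*, which reads the number of X chromosomes in sex determination, was more abundant than any *nhr* gene, with 198 UMIs in the mutants (270.5 CPM) and 362 in Wild Type (357 CPM), a ratio of 0.76 (0.63 to 0.90). *fax-1* had 16 UMIs in 9 mutant cells and 0 in Wild Type. That is 7.38-fold higher if Wild Type is set to the floor, with a lower limit of 5.34 from the exact interval. Of the 16, 11 lay in neuron-like cells, which number 57 in the mutants and 2 in Wild Type. *daf-12*, the dauer receptor, had 3 UMIs in the mutants and 2 in Wild Type, *odr-7*, a receptor of the AWA olfactory neurons, had 2 and 0, and *unc-55*, of motor neurons, had 0 in both.

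Of 9 cofactors and ligand enzymes, 4 reached 20 UMIs, with 0 beyond 2-fold higher and 1 beyond 2-fold lower. The shares of all genes were 20.9% and 5.35%. In Wild Type, 50 of 86 *mdt-15* and 712 of 1557 *smo-1* UMIs lay in barcodes above 10000 UMIs, and the counts past 2-fold without these barcodes were not computed. *mdt-15*, the Mediator subunit that works with NHR-49, had 151.6 CPM in the mutants and 84.9 CPM in Wild Type, a ratio of 1.79 (1.34 to 2.40). *cbp-1*, the p300 acetyltransferase ortholog, and *din-1*, the DAF-12 corepressor, had ratios of 1.49 (1.33 to 1.67) and 1.30 (1.17 to 1.45). *smo-1*, which encodes SUMO, was the lower one, with 554 and 1557 UMIs, at 757 CPM in the mutants and 1537 CPM in Wild Type (0.49, 0.45 to 0.54). *daf-9*, an enzyme of dafachronic acid synthesis, and *hsd-1* had 0 UMIs in both libraries.

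Known lipid targets of the metabolic receptors did not move one way. Of 10, 5 reached 20 UMIs, with 1 beyond 2-fold in each direction, where 20.9% of all genes were higher and 5.35% lower. *acdh-1*, a propionate breakdown gene under NHR-10 and NHR-68, had 181 UMIs in the mutants (247 CPM) and 96 in Wild Type (94.8 CPM), a ratio of 2.61 (2.03 to 3.38). A mutant cell held 73 of the 181 UMIs and a Wild Type cell 61 of the 96, and the gene is among the 10 leading genes of the intestine-like cluster, with 23 mutant cells and 1 Wild Type cell. *acs-2*, a fatty acid oxidation gene under NHR-49, had 6 UMIs in the mutants (8.20 CPM) and 29 in Wild Type (28.6 CPM), a ratio of 0.29 (0.10 to 0.70). Of the 29, 12 lay in barcodes above 10000 UMIs. At Leiden resolution 2.0 *acs-2* was among the 10 leading genes of an unnamed cluster with 10 mutant and 22 Wild Type cells. The desaturase genes *fat-5* and *fat-7* had 0 UMIs in both, and *fat-6* had 1 in each.

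Of 8 genes of the molt and the epidermis, 7 reached 20 UMIs, with 4 higher and 3 lower in the mutants. None was beyond 2-fold, where 20.9% of all genes were higher and 5.35% lower. *noah-1*, a component of the epidermal apical matrix, had 640 UMIs (874 CPM) in the mutants and 662 (653 CPM) in Wild Type, a ratio of 1.34 (1.20 to 1.49), while *noah-2* had 242 UMIs against 519 (0.65, 0.55 to 0.75). *mlt-10* and *mlt-11*, molting genes, had ratios of 1.43 (0.82 to 2.50) and 1.12 (0.93 to 1.34), and *elt-3*, an epidermal GATA factor, had 19 and 52 UMIs (0.51, 0.28 to 0.87). These ratios pool all cells, and hypodermis-like cells gave 13.9% of all UMIs in the mutants and 34.4% in Wild Type. In Wild Type, 419 of 662 *noah-1*, 306 of 519 *noah-2* and 26 of 52 *elt-3* UMIs lay in barcodes above 10000 UMIs. The hypodermis markers, *noah-2* included, summed higher in the mutants, at 27476 against 18405 CPM in hypodermis-like cells and 1979 against 1017 CPM in other cells. A part of cell composition or depth in these ratios was not tested.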

How the data were processed

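The deposited matrices hold raw UMI counts, for which the authors aligned reads to ce11 in Cell Ranger 3.0.2. They were neither filtered nor normalized, and the authors went on in Seurat (version not given in the sources used here). Cells were the 686 *spr-5; met-2* and 219 Wild Type barcodes with the most UMIs, the numbers in the labels. In the mutants 3 barcodes tied at the minimum of 411 UMIs, and the barcode letters decided. Depth was 732058 UMIs in the mutant cells and 1013190 in the Wild Type cells.

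Genes were matched by identifier to Ensembl release 115, which held 20105 of 20191 genes and all 267 *nhr* genes. Clustering used Scanpy 1.11.5 on Python 3.11.15 (2000 variable genes, 20 components, 15 neighbours, Leiden resolution 1.0) without any receptor gene, on counts scaled to 10000 per cell. Names were given to clusters with at least 3 markers 2 times enriched, more than 1.5 times as many as for the next tissue or with 2 among the 10 leading genes, and with at least 1 marker among those 10 or at least 5 markers and 3 times the next tissue. This threshold was set after the data had been seen and kept 2 clusters, with 19.8% of mutant and 3.65% of Wild Type cells, out of the neuron progenitor class. Doublets were called by Scrublet at a rate of 4% (6 mutant and 11 Wild Type cells) and kept.

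Counts were summed over cells as CPM. Ratios have exact conditional binomial intervals, CPM exact Poisson intervals and shares Clopper-Pearson intervals, at 95% and for counting error only. Genes with at least 20 UMIs over both libraries were compared by a size of 2-fold, and a count of 0 was set to a floor of 3. The steps were tested on simulated data. Named genes were the 12 most abundant, the 6 highest and 6 lowest ratios, the members of the lists given, and the leading members of each cell class, with genes added for their values said to be so. The members and lists were chosen with earlier results of these data known. Alternatives changed the cells kept, doublets, scaling, weights, depth, the filter on counts and the clustering.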

Additional observations from a re-analysis of the deposited data

Results flagged for a closer look

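Of the 96 *nhr* genes without a UMI in the cells kept, 24 had at least 1 in the barcodes that were left out, and 3 of these were above the limit of 3 counts. In the left-out barcodes of *spr-5; met-2*, *nhr-117* had 6 UMIs, *nhr-178* had 5 and *nhr-148* had 4. In those of Wild Type *nhr-117* had 0, *nhr-178* had 1 and *nhr-148* had 1. These barcodes hold free RNA and cells under the depth limit, which cannot be told apart here.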

How the results depend on the processing

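No paired analysis was possible because there is 1 library per genotype, and for the same reason no library could be left out. Without barcodes over 10000 UMIs the ratio was 1.67 for the family, 1.69 for the conserved and 1.67 for the other members, the median log2 ratio 0.91, the count of members more than 2-fold lower 1 of 34 (5.28% of all genes), and the Wild Type level in hypodermis-like cells 2591 CPM. With each cell at equal weight these ratios were 1.97, 2.54 and 1.90, the median 0.96, and 22 of 45 members were higher (26.7% of all genes) and 1 lower (6.12%). With 500 UMIs drawn per cell they were 1.76, 2.23 and 1.69, with 3 of 7 members higher (21.5% of all genes) and 0 lower (7.01%), and 58 members were detected in Wild Type. Scaling by the median of ratios gave 1.19 for the family and 1.20 for the other members, with 4 of 45 lower (9.43% of all genes). Clusters at equal weight gave 1.54 and 1.57, and the hypodermis-like cells alone 1.61. A filter of at least 10 UMIs gave 5 of 68 members lower (5.61% of all genes), and one of at least 50 gave 1 of 14 higher (13.7%) and 0 lower (5.42%). The direction of the family ratio held in all of these. Members more than 2-fold higher in hypodermis-like cells of both genotypes were 10 of 34 without barcodes over 10000 UMIs (4.76% of all genes) and 3 of 14 at a filter of 50 UMIs (3.63%), and 17 and 16 of 45 at Leiden resolutions of 0.5 and 2.0. The last 4 values and the ratio within hypodermis-like cells were added after the data had been seen. For single members, 278 of 306 values were counted as within the main interval and 25 as outside it. The 3 values past 2-fold whose ratio crossed 1 were counted apart, inside the interval or not. The ratio crossed 1 in 38 of the 306, and among values past 2-fold it did so for *nhr-60* with each cell at equal weight (1.25), and with 500 UMIs drawn for *nhr-57* (0.84) and *nhr-256* (1.25). All barcodes with at least 500 UMIs and the removal of doublets moved none of the counts by over 1.5 times. The depth limits the 126 detected members under 20 UMIs, which entered no count of members past 2-fold at the filter of 20. With 500 UMIs drawn per cell the values of single members rest on few UMIs.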
